A study of Mus musculus with 31 samples.

Results

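The Schlafen family was followed here through 7 of its mouse genes, Slfn1, Slfn2, Slfn3, Slfn4, Slfn5, Slfn8 and Slfn9. They were taken as a gene family, with earlier results of these data known. Each was matched by Ensembl ID, out of 29120 gene IDs in the deposited tables. All 7 had reads in 31 of 31 RNA-seq libraries, and all 7 passed edgeR's filter on low counts in both tissues. The groups were bone-marrow-derived dendritic cells of C57BL/6 mice given LPS for 8 h on day 11 (3 libraries labelled Gpr34-/- and 3 wild-type), naive dendritic cells without LPS (3 labelled Gpr34-/- and 3 wild-type), and whole naive spleens (9 Gpr34-/- and 10 wild-type). Cells were grown for 10 days from marrow of male mice aged 8 to 16 weeks with supernatant of the GM-CSF-producing X63 line, and the spleens came from mice aged 12 weeks. The LPS dose is not in the labels, and Gpr34-/- is given as a genotype with no promoter, driver or cell restriction. Nothing in the labels says whether libraries of one group came from separate animals or cultures, so the spread behind each p-value may be technical.

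Schlafen proteins share an N-terminal domain and fall into a short class (Slfn1 and Slfn2 in mice), an intermediate class (Slfn3 and Slfn4) and a long class that carries an added helicase-like region (Slfn5, Slfn8 and Slfn9). The first members were found as genes regulated during mouse thymocyte development, and several are induced by type I interferon. LPS is the bacterial lipid sensed by Tlr4, which signals partly through type I interferon in myeloid cells. Gpr34 is a G protein-coupled receptor for lysophosphatidylserine.

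All 7 genes lie on mouse chromosome 11 within 1 cluster. On GRCm38 (GENCODE M21, found by Ensembl ID, whereas the submitters' notes name mm9 for the counts), Slfn5 lies at chr11:82951349-82964840 on the plus strand and opens the cluster, followed by Slfn9 (chr11:82978390-82991830, minus), Slfn8 (chr11:83002158-83020810, minus), Slfn2 (chr11:83065112-83070678, plus), Slfn1 (chr11:83116849-83122670, plus), Slfn4 (chr11:83175186-83190216, plus) and Slfn3 (chr11:83191330-83215154, plus). The longest annotated transcripts measure 1664 and 1864 bases for the short members Slfn2 and Slfn1, 2834 and 3958 bases for the intermediate members Slfn3 and Slfn4, and 4011, 5769 and 5979 bases for the long members Slfn8, Slfn9 and Slfn5. Exons of Slfn5 overlap those of the antisense gene Slfn5os. The members resemble one another and a pseudogene, Slfn10-ps, lies among them, so reads could have been split between copies, and neither the use of strand nor the treatment of reads with several places is given in the sources used here.

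Promoter letters differed between the long members and the other 4. RefSeq (GRCm38.p6) windows of 300 bases, from 250 before to 50 after each annotated start, were found for 7 of 7 members, with 2 windows for Slfn8. The core of the interferon-stimulated response element, searched on either strand as GAAA, then 2 bases of any kind, then GAAA, occurred in the windows of the long members Slfn5, Slfn8 and Slfn9 and in none of the other 4, against 3.44% of all 32851 windows. Stretches around it are shown because the core was found in all 3 long members, with the core in capitals: Slfn5 at chr11:82951917-82951986 (plus), Slfn8 at chr11:83020819-83020888 (minus) and Slfn9 at chr11:82991836-82991905 (minus), each written 5′ to 3′ along its gene.
Slfn5: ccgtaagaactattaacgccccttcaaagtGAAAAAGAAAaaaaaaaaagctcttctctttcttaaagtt
Slfn8: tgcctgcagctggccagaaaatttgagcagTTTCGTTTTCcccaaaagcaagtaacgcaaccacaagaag
Slfn9: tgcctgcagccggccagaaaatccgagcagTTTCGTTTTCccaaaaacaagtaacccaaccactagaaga
The likeness of LPS profiles is described below, and its relation to these letters was not tested. In Slfn8 and Slfn9 the capitals are the core on the opposite strand, at bases -48 to -39 and -45 to -36 from the start, and in Slfn5 it lay at -155 to -146 on the gene's own strand. The Slfn8 and Slfn9 windows were alike throughout, with 250 of 289 aligned bases identical (86.5%), so these 2 matches share 1 sequence. The RefSeq start of Slfn5 lies inside its GENCODE span. The window of Slfn14, a long gene of the family outside the 7 members, held no match to the core.

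The short and intermediate members shared another run of letters, ACTTCCTGG, an ETS-type sequence picked after the windows had been read. It was present in the windows of Slfn1, Slfn2, Slfn3 and Slfn4 on the gene's strand and in 0.843% of all windows. Since the run was picked from these same windows, that share is no test of it. The stretches, with the run in capitals, lie at chr11:83116716-83116784 (Slfn1), chr11:83065027-83065095 (Slfn2), chr11:83191258-83191326 (Slfn3) and chr11:83175083-83175151 (Slfn4), all on the plus strand of GRCm38.p6.
Slfn1: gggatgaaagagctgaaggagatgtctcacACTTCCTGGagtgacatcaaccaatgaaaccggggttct
Slfn2: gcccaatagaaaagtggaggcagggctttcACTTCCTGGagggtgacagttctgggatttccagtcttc
Slfn3: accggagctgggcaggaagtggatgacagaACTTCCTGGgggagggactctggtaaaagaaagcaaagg
Slfn4: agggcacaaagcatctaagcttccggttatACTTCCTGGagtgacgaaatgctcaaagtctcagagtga
The kappa B consensus occurred in the windows of Slfn1 and Slfn9, against 8.46% of all windows. These matches describe letters in the windows, and binding was not measured.

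Dendritic cell libraries held 38998746 to 74164853 counts each, and spleen libraries 56834377 to 133277070. Gpr34 checked the labels: among the libraries labelled Gpr34-/- LPS replicates 2, 3 and 4 held 0, 117 and 104 Gpr34 reads and naive replicates 2, 3 and 4 held 0, 120 and 4, while wild-type LPS cells held 65 to 125 and wild-type naive cells 199 to 324. The dendritic cell knockout groups are therefore called "labelled Gpr34-/-", and results that rest on them are also given without the 3 libraries with over 100 reads (naive 3, LPS 3 and LPS 4), which leaves 1 LPS library that is assumed to vary like the others. Spleens held 42 to 156 Gpr34 reads in Gpr34-/- mice and 308 to 986 in wild-type mice. The 10 dendritic cell markers, Itgax and H2-Ab1 among them, were all detected in every dendritic cell library, with summed levels of 17500 to 20544 CPM after LPS and 11228 to 16395 CPM in naive cells (CPM being a gene's reads relative to the library's TMM-scaled total). Summed B, T and NK cell markers each stayed at or below 11.9 CPM in these libraries. Naive replicate 3 labelled Gpr34-/- stood apart, with the lowest sum of 8 macrophage markers (759 CPM, against 1299 to 1577 CPM in the other 5 naive libraries) and the highest sum of dendritic cell markers among naive libraries (16395 CPM). LPS replicate 3 with that label was also lowest of its treatment in macrophage markers (895 CPM, against 1253 to 2053 CPM), and LPS replicate 2 was highest in stromal and endothelial markers (557 CPM, against 41.9 to 73.6 CPM).

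Every Schlafen member was higher after LPS than in naive cells, in both genotypes. In cells labelled Gpr34-/- 7 of 7 passed edgeR's quasi-likelihood test at a Benjamini-Hochberg adjusted p of 0.05 and were higher, against a background of 15.3% of 16965 genes called higher. In wild-type cells 7 of 7 were higher, against a background of 18.1%. The median log2 fold change of the members was 2.31 in cells labelled Gpr34-/- and 2.16 in wild-type cells, beside -0.02 and -0.03 over all genes tested. LPS and naive libraries labelled Gpr34-/- did not overlap for any of the 7 members, as was the case, upward, for 21.3% of all genes. The wild-type groups did not overlap for 7 of 7 either, against 25.6%. In bulk cultures a change in RNA per cell and a change in the share of cells that express a gene cannot be told apart. Of the 10 dendritic cell markers, 4 were called higher after LPS with the Gpr34-/- label and 8 in wild-type cells. Without composition factors (plain library totals) 2 were higher and 1 lower with the label, and 4 higher and 0 lower in wild-type cells. Of all 16965 genes, 1441 were then higher and 4986 lower with the label, and 1599 and 6128 in wild-type cells. The part of these markers in the results was not tested.

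**Figure D1:**
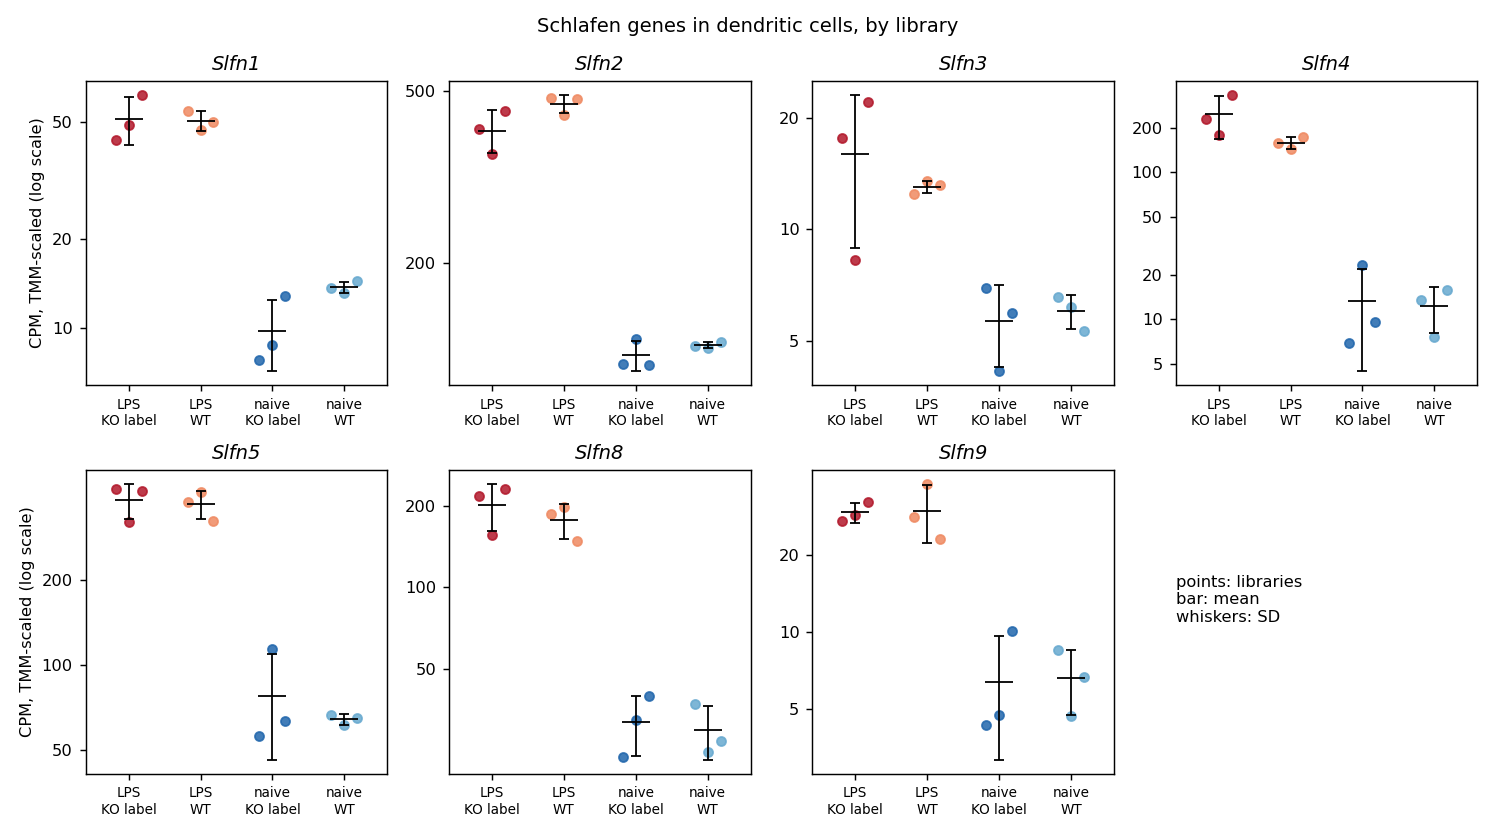
Levels of the 7 Schlafen genes in dendritic cells, in CPM with TMM-scaled library sizes on log axes; points are libraries, bars means and whiskers SD (n = 3 per group). For every member both LPS groups sit above both naive groups, and in naive cells labelled Gpr34-/- replicate 3 is the highest library for Slfn4 (23.4 CPM) and Slfn5 (114 CPM).

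The short member Slfn2, whose loss in mice costs T cells their quiescence and which protects transfer RNAs from cleavage in activated mouse T cells, was the most abundant per transcript length. Its level was 409, 357 and 449 CPM in LPS libraries 2, 3 and 4 labelled Gpr34-/-, against 117, 134 and 117 CPM in naive libraries 2, 3 and 4 of that label. In wild-type cells it was 482, 441 and 479 CPM after LPS, against 129, 127 and 131 CPM in naive cells. All 6 LPS libraries were above all 6 naive libraries, and the libraries of each group lay close together. The log2 fold change was 1.73 in cells labelled Gpr34-/- (SE 0.10, edgeR adjusted p = 8.52e-07) and 1.86 in wild-type cells (SE 0.10, edgeR adjusted p = 5.41e-07), a 3.62-fold difference with a 95% interval of 3.12 to 4.20.

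Slfn1, the other short member, arrests the growth of mouse thymocytes when it is forced on. With the Gpr34-/- label it measured 43.2, 48.7 and 61.6 CPM after LPS, against 7.84, 8.81 and 12.9 CPM in naive cells. In wild-type cells it measured 54.5, 46.7 and 49.9 CPM after LPS, against 13.8, 13.2 and 14.4 CPM in naive cells. LPS and naive libraries were separate in both genotypes, and the 3 naive libraries labelled Gpr34-/- were the lowest of all 12. The fold was 5.21 in cells labelled Gpr34-/- (95% interval 3.89 to 6.96, edgeR adjusted p = 1.09e-05) and 3.65 in wild-type cells (2.74 to 4.85, adjusted p = 3.59e-05).

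Slfn4, an intermediate member known to be induced when mouse macrophages are activated, had the largest fold of the 7. Libraries labelled Gpr34-/- held 231, 179 and 338 CPM after LPS, against 6.91, 23.4 and 9.54 CPM in naive cells. Wild-type libraries held 160, 144 and 174 CPM after LPS, against 13.5, 7.53 and 15.8 CPM in naive cells. The lowest LPS library was still far above the highest naive one, which was replicate 3 labelled Gpr34-/-. The log2 fold change was 4.22 with the Gpr34-/- label (SE 0.47, edgeR adjusted p = 1.00e-04), or 4.91 without naive replicate 3. It was 3.69 in wild-type cells (SE 0.46, edgeR adjusted p = 1.52e-04), or 12.9-fold with an interval of 6.43 to 26.1.

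Slfn3, the other intermediate member, studied in rat intestinal cell differentiation, had the smallest fold. Cells labelled Gpr34-/- gave 17.7, 8.25 and 22.1 CPM after LPS, against 6.94, 4.15 and 5.94 CPM in naive cells. In wild-type cells it measured 12.5, 13.5 and 13.2 CPM after LPS, against 6.59, 6.18 and 5.33 CPM in naive cells. LPS replicate 3 labelled Gpr34-/- was the low one, and with plain library sizes the 2 groups of that label overlapped. The log2 fold change was 1.5 with the Gpr34-/- label (SE 0.31, edgeR adjusted p = 0.00434) and 1.11 in wild-type cells (SE 0.31, edgeR adjusted p = 0.0165). The wild-type call did not hold without composition factors (0.70, adjusted p = 0.0807), without naive wild-type replicate 2 (1.09, adjusted p = 0.0552) or without naive wild-type replicate 4 (0.99, adjusted p = 0.0710).

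Among the long members, Slfn5, which is induced by interferon in human and mouse cells, had 419, 322 and 414 CPM after LPS with the Gpr34-/- label, against 56.0, 114 and 63.3 CPM in naive cells. Its wild-type levels were 379, 410 and 325 CPM after LPS, against 66.7, 61.2 and 64.9 CPM in naive cells. LPS libraries were all above naive ones, and naive replicate 3 labelled Gpr34-/- was again the highest naive library. The log2 fold change was 2.31 with the Gpr34-/- label (SE 0.24, edgeR adjusted p = 6.07e-05), or 2.67 without that library, and 2.53 in wild-type cells (SE 0.24, edgeR adjusted p = 2.47e-05). Slfn5os, which shares exons with Slfn5 on the other strand, was also higher (2.37 in wild-type cells, SE 0.30, edgeR adjusted p = 1.61e-04) at 3.72 to 4.55 CPM after LPS, against 0.660 to 1.03 CPM in naive wild-type cells. Without strand the reads of the pair cannot be told apart, and Slfn5os reads were few beside those of Slfn5.

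Slfn8 and Slfn9 are long members whose promoter windows aligned at 86.5% identity. Slfn8 measured 217, 156 and 231 CPM with the Gpr34-/- label after LPS, against 23.6, 32.4 and 39.6 CPM in naive cells, and 186, 197 and 148 CPM in wild-type LPS cells, against 37.2, 24.8 and 27.1 CPM in naive wild-type cells. Slfn9 was scarcer, with 27.2, 28.5 and 32.1 CPM with the Gpr34-/- label after LPS, against 4.34, 4.75 and 10.1 CPM in naive cells, and 28.2, 37.9 and 23.1 CPM in wild-type LPS cells, against 8.55, 4.73 and 6.67 CPM in naive wild-type cells. For both genes the LPS libraries lay above every naive library. Slfn8 rose 6.32-fold with the Gpr34-/- label (95% interval 4.41 to 9.05, edgeR adjusted p = 2.15e-05) and 5.96-fold in wild-type cells (4.17 to 8.53, adjusted p = 1.90e-05). Slfn9 rose 4.59-fold with the label (2.75 to 7.66, edgeR adjusted p = 7.25e-04) and 4.47-fold in wild-type cells (2.69 to 7.45, adjusted p = 6.12e-04).

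Leaving out the 3 libraries labelled Gpr34-/- that held over 100 Gpr34 reads left 1 LPS library of that label. The log2 fold changes of the members in cells of that label then ran from 1.42 for Slfn3 to 4.78 for Slfn4. The 95% interval of the fold of Slfn4 in wild-type cells (6.43 to 26.1) lay above those of Slfn1, Slfn2 and Slfn3, whose upper ends were 4.85, 4.20 and 3.46, and overlapped those of Slfn5, Slfn8 and Slfn9, whose upper ends were 8.34, 8.53 and 7.45. The differences between members were not tested.

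**Figure D2:**
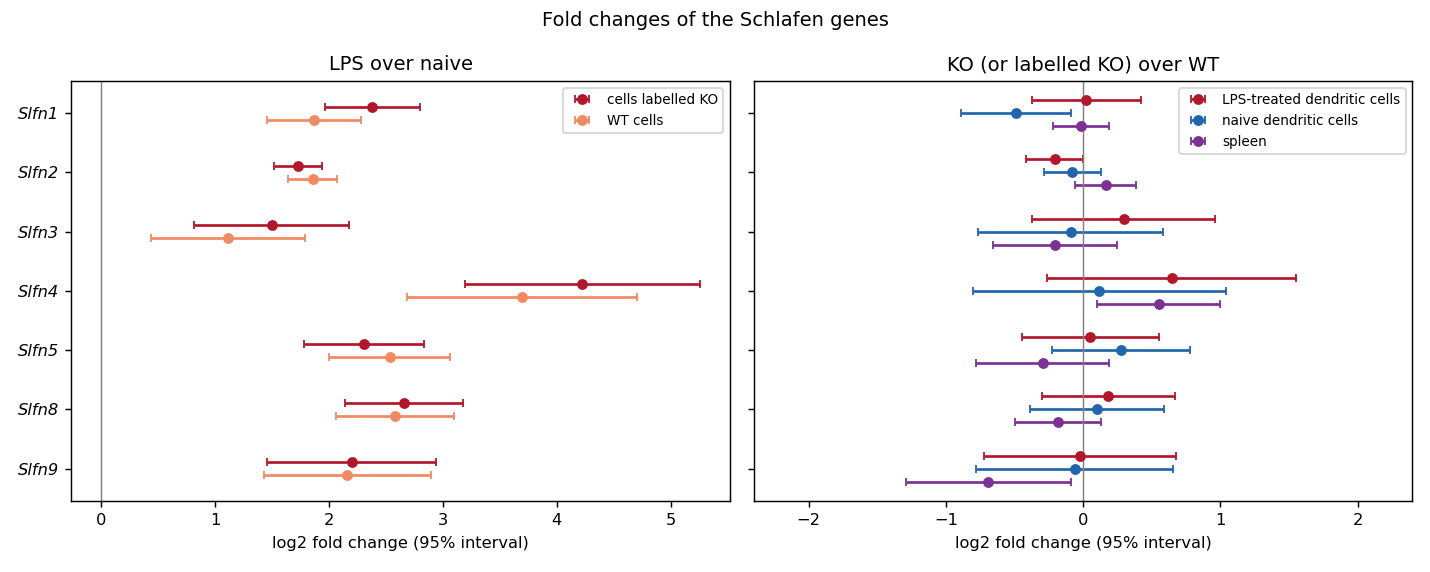
Log2 fold changes of the 7 genes with 95% intervals, on the left LPS over naive in cells labelled Gpr34-/- and in wild-type cells, on the right Gpr34-/- (or labelled so) over wild-type in LPS-treated dendritic cells, naive dendritic cells and spleens. All left-hand intervals lie above 0, while those on the right include 0 except for Slfn1 in naive cells (-0.49) and for Slfn4 (0.55) and Slfn9 (-0.69) in spleen.

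Since reads scale with transcript length, levels of different genes were set side by side as RPKM, that is CPM per transcript length, with the longest annotated transcript. Slfn2 had the highest RPKM in all 31 libraries. In wild-type LPS cells the mean RPKM ran from Slfn2 (280.8 ± 13.6, SD, n = 3) through Slfn5 (62.1 ± 7.16), Slfn8 (44.2 ± 6.46), Slfn4 (40.2 ± 3.79), Slfn1 (27.0 ± 2.10) and Slfn9 (5.16 ± 1.31) to Slfn3 (4.60 ± 0.18). In that order Slfn8 and Slfn4, and Slfn9 and Slfn3, overlapped in range. In naive wild-type cells the order was Slfn2 (77.6 ± 1.21), Slfn5 (10.7 ± 0.47), Slfn8 (7.40 ± 1.65), Slfn1 (7.40 ± 0.33), Slfn4 (3.10 ± 1.08), Slfn3 (2.13 ± 0.23) and Slfn9 (1.15 ± 0.33), with overlap between Slfn8 and Slfn1 and between Slfn4 and Slfn3. In cells labelled Gpr34-/- the order after LPS was Slfn2, Slfn5, Slfn4, Slfn8, Slfn1, Slfn3 and Slfn9, where Slfn5, Slfn4 and Slfn8 overlapped in turn, as did Slfn3 and Slfn9. In naive cells of that label it was Slfn2, Slfn5, Slfn8, Slfn1, Slfn4, Slfn3 and Slfn9, and every neighbouring pair below Slfn2 overlapped.

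The make-up of the family's summed RPKM, which does not depend on how libraries are scaled to each other, shifted with LPS. Slfn4 made up 11.7 to 16.1% of the sum in LPS libraries labelled Gpr34-/-, against 1.85 to 4.90% in naive ones. In wild-type cells its share was 7.98 to 9.59% after LPS, against 1.81 to 3.59% in naive cells. Slfn2's share was 51.1 to 55.6% after LPS with the Gpr34-/- label, against 66.7 to 74.2% in naive cells, and 58.2 to 62.8% in wild-type LPS cells, against 68.9 to 72.9% in naive wild-type cells. For both genes the LPS and naive shares were separate in each genotype. The RPKM ratio of Slfn4 to Slfn3, the intermediate pair, was 9.36 to 15.5 after LPS and 0.712 to 4.03 in naive cells with the Gpr34-/- label, and 7.65 to 9.46 after LPS and 0.871 to 2.12 in naive wild-type cells.

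**Figure D3:**
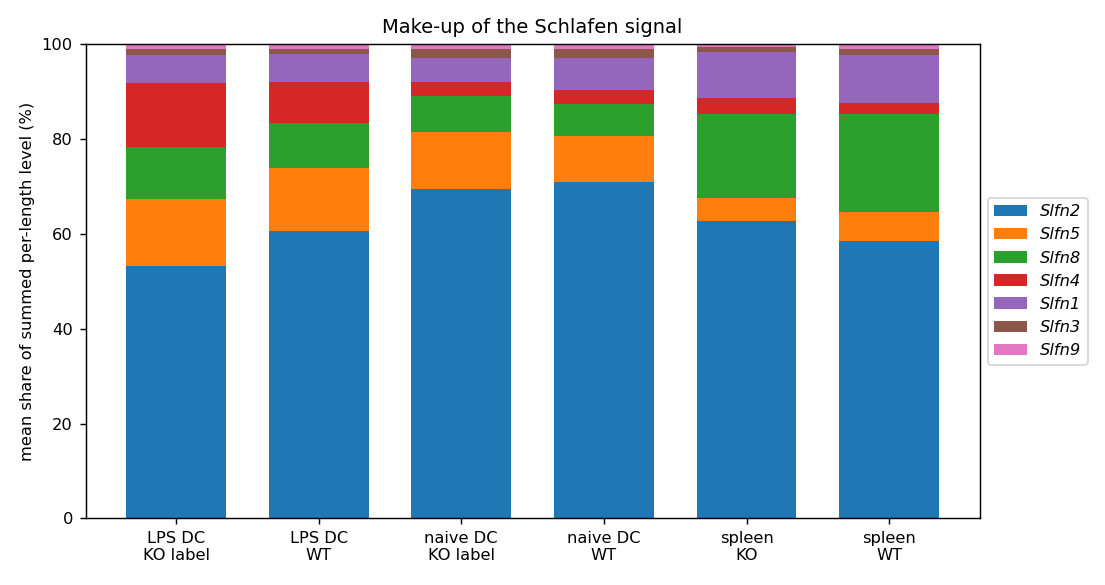
Mean share of each gene in the summed per-length level (RPKM) of the 7 Schlafen genes, in percent, for LPS and naive dendritic cells (n = 3 each), 9 Gpr34-/- spleens and 10 wild-type spleens. Slfn2 takes 53.2 to 70.9% of each bar, Slfn4 is widest after LPS (13.5% and 8.67%) and Slfn8 in spleens (17.7% and 20.7%).

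Likeness to other genes was measured as the root mean square difference of log2 CPM over the 12 dendritic cell libraries, each gene centred on its mean. The LPS contrast therefore enters it. Compared were 10976 genes of at least 1 CPM, without the members and without clone, predicted and pseudogene (-ps) names such as Slfn10-ps. Slfn5 lay nearest to Casp4 (0.081), Ifih1 (0.12) and Ccnd2 (0.15), and Slfn8 to Ddx60 (0.16), Parp14 (0.22) and Xaf1 (0.23). Casp4 is the caspase that senses cytosolic LPS, Ifih1 a sensor of double-stranded RNA, and Parp14 an ADP-ribosyltransferase. Slfn9 was nearest to Col4a2 (0.30), Slc25a22 (0.31) and Lgals9 (0.32). Slfn4 had Ifi213 (0.32), Oasl1 (0.37) and Ifi44 (0.41) nearest. Of the short members, Slfn2 lay beside Pnp2 (0.093), Trafd1 (0.097) and Tapbp (0.098), and Slfn1 beside Thbs1 (0.21), Ier3 (0.21) and Daxx (0.23). Slfn3 was nearest to Stard5 (0.22), Glrx (0.23) and Abcc5 (0.23). Between members, Slfn5 and Slfn8 were closest (0.28), with Slfn1 and Slfn2 (0.31), Slfn1 and Slfn9 (0.31) and Slfn8 and Slfn9 (0.32) next, and Slfn3 and Slfn4 farthest apart (1.54). The median over all genes compared ran from 0.796 for Slfn3 to 2.13 for Slfn4.

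The pathway around the family changed with LPS too. Of 24 interferon-stimulated genes, 24 were higher after LPS in wild-type cells (median log2 fold change 2.69) and 24 in cells labelled Gpr34-/- (2.83), beside 18.1% and 15.3% of all genes, the antiviral sensor Zbp1 at 2.73 (edgeR adjusted p = 6.48e-08) and the chemokine Cxcl10 at 6.93 (6.48e-08) among the 4 with the smallest p in wild-type cells. Of 17 genes of LPS sensing and type I interferon signalling, 15 were higher and 2 lower in wild-type cells (18.1% and 15.8% of all genes). With the Gpr34-/- label 14 were higher and 1 lower (15.3% and 13.4%). Without composition factors 11 were higher and 2 lower in both. Of all 16965 genes, 1599 were then higher and 6128 lower in wild-type cells, and 1441 and 4986 with the label. The transcription factor Stat2 and the interferon-induced brake Usp18 were higher by 1.80 and 3.12 in wild-type cells, and Irf7, an inducer of interferon genes, by 4.15. The LPS receptor gene Tlr4, chosen after its value was seen, averaged 17.1 ± 2.69 CPM after LPS and 39.9 ± 4.00 CPM in naive wild-type cells (SD, n = 3 each), a log2 fold change of -1.23 (edgeR adjusted p = 4.52e-04).

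Genes next to the cluster did not move as a block. Of 14 flanking genes 12 were tested, and 3 were higher and 2 lower in wild-type cells, beside a background of 18.1% higher and 15.8% lower. Without composition factors 1 was higher and 3 lower, beside 1599 higher and 6128 lower of all 16965 genes. The ubiquitin ligase gene Rffl was higher (1.51, SE 0.15, edgeR adjusted p = 4.35e-05), as were the adaptor subunit gene Ap2b1 (0.52) and the DNA ligase gene Lig3 (0.57), while the recombination gene Rad51d was lower (-0.60). With the Gpr34-/- label 2 were higher and 1 lower, beside 15.3% higher and 13.4% lower of all genes. Within the cluster the pseudogene Slfn10-ps was higher by 1.84 in wild-type cells (SE 0.36, edgeR adjusted p = 0.00263) and by 1.66 with the Gpr34-/- label (edgeR adjusted p = 0.00566), or by 2.25 (chosen after seeing the data) without naive replicate 3, which held 33.0 CPM, against 9.62 and 16.2 CPM in the other naive libraries of the label. Slfn14, a long member known as a ribosome-associated nuclease of rabbit reticulocytes, had 0 reads in all 12 dendritic cell libraries, and Slfnl1 had at most 2 reads in any of them.

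Genes tied to functions known for Slfn2 went both ways. Of 10 genes of transfer RNA cleavage and protection, 3 were higher and 3 lower in wild-type cells, and 2 higher and 4 lower with the Gpr34-/- label (18.1% and 15.8%, and 15.3% and 13.4%, of all genes). The ribonuclease gene Zc3h12a stood at 2.68 (edgeR adjusted p = 1.32e-06) in wild-type cells, and Samd9l, whose protein cleaves a transfer RNA in human cells, at 1.65 (4.30e-05). Of 13 genes of quiescence and G1 control, 4 were higher and 4 lower in wild-type cells (18.1% and 15.8% of all genes), and 4 higher and 5 lower with the Gpr34-/- label (15.3% and 13.4%). The cyclin gene Ccnd2 (2.45) and the cell-cycle inhibitor gene Cdkn1a (0.96) were higher in wild-type cells, and Klf4 (-2.52) and Myc (-2.67), both transcription factors of proliferation and differentiation, were lower. Without composition factors, which moved the median of all genes to -0.44, these counts became 2 higher and 5 lower for transfer RNA genes and 2 higher and 8 lower for quiescence genes in wild-type cells. Of all 16965 genes, 1599 were then higher and 6128 lower.

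Between genotypes no Schlafen member passed the test in dendritic cells. In naive cells 0 of 7 members were called by edgeR, against a background of 0% of 16965 genes, and 1 of 7 had an unadjusted p under 0.05, as did 6.71% of all genes. DESeq2 and limma voom also called 0 of 7. That member was Slfn1, with 7.84, 8.81 and 12.9 CPM in naive cells labelled Gpr34-/- and 13.8, 13.2 and 14.4 CPM in naive wild-type cells. Its 2 groups did not overlap, as was the case for 13.1% of all genes in either direction and 6.48% downward. Its log2 fold change was -0.49 (SE 0.18, unadjusted edgeR p = 0.0219, adjusted p = 0.721), or -0.43 without naive replicate 3 of the label, the naive library of that label with over 100 Gpr34 reads. The values for Slfn4 and Slfn5 were 0.12 and 0.28 with that library and -0.60 and -0.12 without it, and Slfn4 was also below 0 (-0.16) without naive wild-type replicate 2. The remaining members had log2 fold changes of -0.09 (Slfn3) to 0.10 (Slfn8).

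After LPS 0 of 7 members were called between cells labelled Gpr34-/- and wild-type cells, again against 0% of all genes. None of the 7 had an unadjusted edgeR p under 0.05, against 11.3% of all genes, and DESeq2 and limma voom called 0 of 7. Slfn4 was the member with separate groups, as was the case for 17.5% of all genes in either direction and 8.97% upward. It held 231, 179 and 338 CPM with the label, against 160, 144 and 174 CPM in wild-type cells. Its log2 fold change was 0.65 (SE 0.41, edgeR adjusted p = 0.591), a fold interval of 0.835 to 2.93, and 0.52 without the 3 libraries with over 100 Gpr34 reads. Slfn2 was measured most tightly, at 0.867-fold with an interval of 0.751 to 1.0 (edgeR adjusted p = 0.443). The fold intervals of the other 5 members ran from 0.605 at the lowest end (Slfn9) to 1.95 at the highest (Slfn3).

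The interaction of genotype and LPS, that is, the LPS effect in cells labelled Gpr34-/- minus that in wild-type cells, was called for 0 of 7 members and for 0% of all genes, and by DESeq2 and limma voom for 0 of 7. An unadjusted edgeR p under 0.05 was reached by none of the members and by 4% of all genes. Slfn1 (0.51, SE 0.26, unadjusted edgeR p = 0.0714) and Slfn4 (0.53, SE 0.59, p = 0.387) had the largest estimates, both with an adjusted p of 1. Without the 3 libraries with over 100 Gpr34 reads Slfn1 stood at 0.18 and Slfn4 at 1.10.

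In spleen the family looked different. Slfn8 followed Slfn2 in place of Slfn5: the mean RPKM order was Slfn2, Slfn8, Slfn1, Slfn5, Slfn4, Slfn3 and Slfn9 in both genotypes, with 60.9 ± 14.2 for Slfn2 and 17.0 ± 4.39 for Slfn8 in Gpr34-/- spleens (SD, n = 9) and 54.4 ± 5.42 for Slfn2 and 19.3 ± 3.75 for Slfn8 in wild-type spleens (SD, n = 10). In wild-type spleens Slfn4, Slfn3 and Slfn9 overlapped in turn, whereas in Gpr34-/- spleens every neighbouring pair below Slfn2 did. The RPKM ratio of Slfn8 to Slfn5 was 2.75 to 9.19 in Gpr34-/- spleens (median 3.40) and 2.81 to 4.55 in wild-type spleens (median 3.37), above 1 in 19 of 19. In dendritic cells the same ratio was 0.423 to 0.933 over the 12 libraries, with no overlap with the spleens. A spleen holds many cell types, so fewer cells of a type and less RNA per cell cannot be told apart in these levels.

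**Figure D4:**
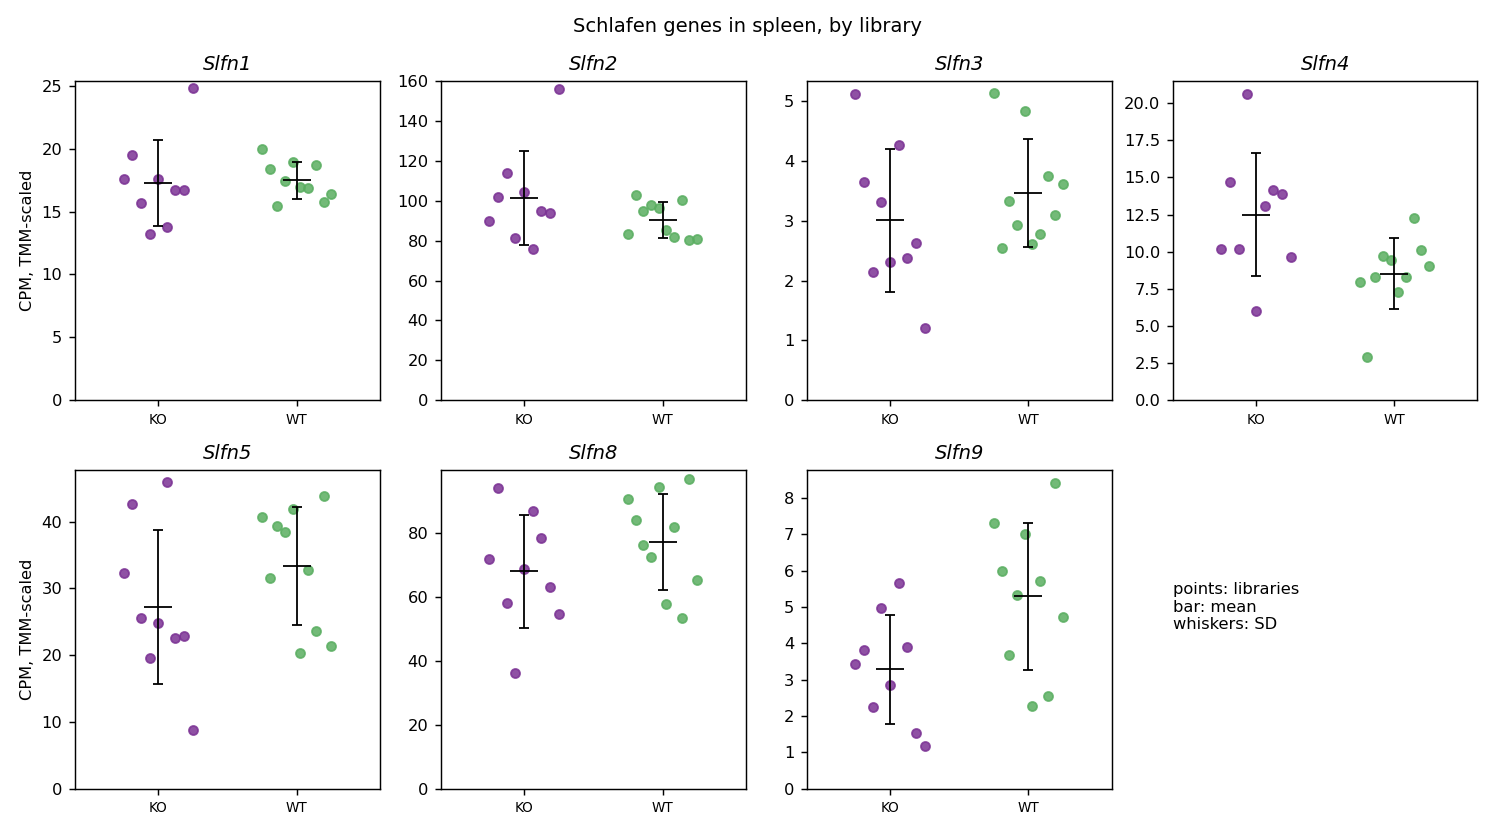
Levels of the 7 Schlafen genes in 9 Gpr34-/- and 10 wild-type spleens, in CPM with TMM-scaled library sizes on linear axes from 0; points are libraries, bars means and whiskers SD. The genotypes overlap for every member, with 1 high Gpr34-/- library for Slfn2 (156 CPM) and 1 low wild-type library for Slfn4 (2.90 CPM).

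No member differed between Gpr34-/- and wild-type spleens past the threshold. No member's groups were free of overlap (0 of 7, against 0.0736% of all genes). By edgeR 0 of 7 were called, against a background of 0.177% of 20371 genes, and 2 of 7 had an unadjusted p under 0.05, against 17.4% of all genes. DESeq2 and limma voom called 0 of 7 as well. Slfn4 measured 5.98, 13.1 and 20.6 CPM as the lowest, median and highest Gpr34-/- spleen, against 2.90, 8.69 and 12.2 CPM in wild-type spleens. Its fold was 1.46 (95% interval 1.07 to 2.00, unadjusted edgeR p = 0.0187, adjusted p = 0.206). Slfn9 measured 1.17, 3.43 and 5.65 CPM in Gpr34-/- spleens, against 2.29, 5.52 and 8.41 CPM in wild-type spleens. Its fold was 0.620 (0.409 to 0.939, unadjusted edgeR p = 0.0263, adjusted p = 0.228). Both sets of spleens overlapped for both genes, with the Gpr34-/- spleens lying higher for Slfn4 and lower for Slfn9.

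The other 5 members had fold intervals that included 1. Slfn1 was the most tightly bound, at 0.988-fold (0.858 to 1.14), with 13.2 to 24.8 CPM in Gpr34-/- spleens and 15.4 to 19.98 CPM in wild-type spleens. Slfn2 was at 1.12-fold (0.959 to 1.31), Slfn3 at 0.867-fold (0.634 to 1.19), Slfn5 at 0.816-fold (0.583 to 1.14) and Slfn8 at 0.880-fold (0.708 to 1.09). The median log2 fold change of the 7 was -0.18, beside 0.01 over all genes tested.

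Several spleens stood apart in cell markers as well as in Schlafen levels. Gpr34-/- spleen 9 had the highest Slfn1 (24.8 CPM) and Slfn2 (156 CPM) and the lowest Slfn3, Slfn5 and Slfn9 of its group, and also the highest sum of dendritic cell markers (24300 CPM, against 10902 to 19136 CPM in the other Gpr34-/- spleens and 10769 to 16314 CPM in wild-type spleens). The median log2 CPM of those 10 markers was 6.25 there, within the 6.01 to 6.42 of the other Gpr34-/- spleens. Its sums of T cell (1186 CPM) and NK cell markers (236 CPM) were the highest of all 19 spleens. Gpr34-/- spleen 4 had the highest Slfn4 (20.6 CPM) and the lowest Slfn8 (36.2 CPM) of its group, with the highest sums of erythroid markers (46673 CPM, against 7667 to 25705 CPM in the other Gpr34-/- spleens and 4929 to 18276 CPM in wild-type spleens) and of neutrophil markers in its group (1505 CPM). Gpr34-/- spleen 6 had the highest Slfn5 (45.9 CPM) and Slfn9 (5.65 CPM) of its group and the lowest sum of T cell markers of all 19 spleens (587 CPM). Exocrine pancreas markers summed to 2664 CPM in that spleen and 2735 CPM in Gpr34-/- spleen 3. Their median sum was 406 CPM in Gpr34-/- and 58.6 CPM in wild-type spleens (12.2 to 2735 CPM and 11.2 to 1273 CPM). The median log2 fold change of these 7 markers was 1.63, with 0 of 7 called by edgeR, against 0.177% of all genes. An unadjusted edgeR p under 0.05 was reached by 1 of 7 (Cela1), against 17.4% of all genes. The part of these cells in the genotype values was not tested. Without Gpr34-/- spleens 4, 6 and 9, described above, Slfn4 stood at 0.44 and Slfn9 at -0.84 on the log2 scale (edgeR adjusted p = 0.351 for Slfn4 and 0.130 for Slfn9).

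Slfn14, silent in the dendritic cells, ranged from 1.16 to 21.9 CPM in Gpr34-/- spleens and from 2.37 to 16.8 CPM in wild-type spleens, with no call between genotypes (0.42, SE 0.50, edgeR adjusted p = 0.685). Its highest levels were in Gpr34-/- spleens 6 and 4 (21.9 and 19.5 CPM) and wild-type spleen 4 (16.8 CPM). Slfn10-ps averaged 6.73 ± 2.28 CPM in Gpr34-/- spleens and 9.53 ± 2.66 CPM in wild-type spleens (SD, n = 9 and 10), a log2 fold change of -0.50 (SE 0.21, edgeR adjusted p = 0.226). None of the 24 interferon-stimulated genes was called in spleen by edgeR, against a background of 0.177% of 20371 genes. Their median log2 fold change was 0.21, beside 0.01 over all genes tested. Of the signalling genes, the kinase gene Ikbke was at -0.33 (edgeR adjusted p = 0.0633) and Irf7 at 0.40 (edgeR adjusted p = 0.0756).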

How the data were processed

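RNA-seq was deposited as whole-number read counts per Ensembl gene, 1 table per library, not normalized. TopHat 1.3.3, Bowtie, SAMtools, bedtools, DESeq and mm9 are named, without roles, per the submitters' processing notes, with the annotation release, strand use and handling of multi-mapped reads not given in the sources used here. A gene missing from a table was set to 0. Of counts from 2 to 200, 61.0 to 64.3% were even, and whether both mates of a pair were counted is not stated. Intervals cover the spread between libraries.

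Groups came from the labels. The 12 dendritic cell libraries (16965 genes after edgeR's filter on low counts, 8 residual degrees of freedom) and the 19 spleens (20371 genes, 17) were fitted separately with edgeR 4.0.16 in R 4.3.3: TMM factors, robust quasi-likelihood F-test, Benjamini-Hochberg adjustment at 0.05 over all genes. The SE was computed as the absolute log2 fold change over the square root of F, and 95% intervals use the moderated degrees of freedom. CPM uses TMM-scaled library sizes, and log2 CPM a prior count of 2. Since the tissues were scaled separately, no level was tested between them. One promoter motif and some list genes are not reported here. Scripts were tested on simulated data.

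Named were the 7 members, Gpr34, up to 4 genes of smallest p per list (fewer in the text) and the 3 genes nearest each member. Tlr4 and, in spleen, the libraries singled out were chosen after their values were seen. The members, lists and alternatives were chosen with earlier results of these data known. Alternatives were DESeq2 1.42.0, limma 3.58.1 voom with sample weights, RLE factors, library totals without composition factors, all genes unfiltered, fits on the compared libraries alone, a replicate block, exon-union lengths, and leaving out libraries; those on list counts were added after seeing the data.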

Additional observations from a re-analysis of the deposited data

Results flagged for a closer look

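In spleens, where groups are large enough for a check of single libraries, 14 combinations of gene and group were examined, and chance flags about 1 in 20. Slfn2 in Gpr34-/- spleen 9 was far above the others of its group, at 156 CPM, with the next at 114 CPM. Without it the log2 fold change of Slfn2 between Gpr34-/- and wild-type spleens was 0.06, against 0.16 with it, and neither was called. Slfn4 in wild-type spleen 2 was far below the others, at 2.90 CPM with the next at 7.28 CPM. Leaving out any 1 spleen kept the log2 fold change of Slfn4 between 0.43 and 0.64, with no call.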

How the results depend on the processing

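The LPS calls of the members were 7 of 7 in cells labelled Gpr34-/- under every alternative, and 7 of 7 in wild-type cells except without composition factors (6, Slfn3 lost) and when 1 library was left out (6 to 7). Genotype comparisons and the interaction called 0 of 7 under every alternative, leaving out 1 library included. Without composition factors the median of all genes moved to -0.44 in wild-type cells and -0.35 with the Gpr34-/- label, and the calls of all genes to 1599 higher and 6128 lower (3064 and 2679 with TMM) and to 1441 and 4986 (2601 and 2274). Calls of all genes in spleen were 36 by edgeR, 873 by DESeq2, 790 by voom, 190 without composition factors, 297 without Gpr34-/- spleens 4, 6 and 9, and 8 to 1051 when 1 spleen was left out, the most without Gpr34-/- spleen 6. In naive cells they were 0 by edgeR, 76 by DESeq2, 1 by voom and 1 without a filter, after LPS 0, 372 by DESeq2 and 6 without the 3 libraries with over 100 Gpr34 reads, and for the interaction 0, 21 and 3.

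Replicate numbers were not taken to pair libraries, since not every same-numbered pair correlated over 0.1 and no label ties them: deviations of same-numbered libraries correlated at -0.01 to 0.07 between the groups labelled Gpr34-/- and -0.08 to 0.29 in spleens, and 2 of 3 and 4 of 9 libraries correlated best with their own number. With a replicate block the LPS calls of members stayed at 7 and 7, and calls of all genes were 4479 and 4228 after LPS (5743 and 4875 without it) and 3 in spleen.

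Of 315 member values under alternatives 20 changed sign, and of 553 with 1 library left out 31 did, none of them called. All were genotype differences or interactions, and no value of LPS over naive changed sign. In this paragraph naive, LPS and spleen values are log2 fold changes of Gpr34-/- (or labelled so) over wild-type in those samples. By voom the changed values were naive Slfn4 -0.30 and Slfn9 0.19, interaction Slfn5 0.065 and Slfn9 -0.20, and spleen Slfn1 0.013. Without composition factors LPS Slfn9 was 0.025, and without a filter spleen Slfn1 was 0.0017. With the replicate block naive Slfn3 was 0.049, Slfn4 -0.00012 and Slfn9 0.059, LPS Slfn1 -0.068, and interaction Slfn8 -0.063 and Slfn9 -0.13. Without the 3 libraries with over 100 Gpr34 reads naive Slfn3 was 0.092, Slfn4 -0.59, Slfn5 -0.11 and Slfn9 0.11, LPS Slfn1 -0.24, and interaction Slfn5 0.26 and Slfn9 -0.26. With 1 library left out, naive values ranged from -0.28 to 0.084 (Slfn3), -0.60 to 0.40 (Slfn4), -0.12 to 0.44 (Slfn5), -0.10 to 0.28 (Slfn8) and -0.56 to 0.14 (Slfn9), LPS values from -0.13 to 0.13 (Slfn1), -0.011 to 0.61 (Slfn3), -0.035 to 0.17 (Slfn5) and -0.18 to 0.19 (Slfn9), interactions from -0.38 to 0.18 (Slfn5), -0.082 to 0.30 (Slfn8) and -0.15 to 0.55 (Slfn9), and spleen Slfn1 from -0.098 to 0.026. The cause was not tested.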
